A study of Nitraria sibirica with 9 samples.

Results

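The comparison described here sets leaves of Nitraria sibirica, a salt-tolerant shrub, at 100 mM NaCl against leaves without added salt. It rests on 6 of the 9 libraries of the series, 3 at 100 mM and 3 at 0 mM, chosen by their labelled salt level. All plants were greenhouse seedlings. The NaCl dose was stepped up daily until the target was reached, and leaves were taken after 3 days of treatment. The other 3 libraries, at 400 mM, help here to estimate the spread between replicates and to sort clusters by abundance. They also take part in the filter on low counts and in the scaling. With them 56832 clusters were tested, and 50421 with only the 6 libraries compared. Replicates carry numbers, but no label states that they are different plants. The p-values given below thus speak only of the spread among these libraries, which may be technical.

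Salt in the soil stresses a plant both by holding back water and by loading tissues with sodium and chloride. Plants are known to answer with ion transport out of the cell and into the vacuole, with compatible solutes such as proline, and with enzymes that remove reactive oxygen. Shrubs of saline soils such as Nitraria keep growing at salt levels that damage most crops. Expression was counted over clusters of a transcriptome assembled without a genome, and the files pair no gene name, protein description or sequence with a cluster. None of these known responses, and no leaf marker gene, can therefore be matched to a cluster. The changes are described by their size, direction, abundance and cluster length.

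The libraries held between 16502576 and 22494402 counts. The shallowest was replicate 1 at 0 mM and the deepest replicate 1 at 100 mM. By the number of clusters with a count, replicate 1 at 100 mM stood apart from its group. It held a count for 89744 clusters, close to the 89000 to 91227 of the 0 mM libraries, while replicates 2 and 3 at 100 mM held counts for 79265 and 77735. Across tested clusters, the Pearson correlation of log2(CPM + 0.5), where CPM is counts scaled to library size, was 0.87 to 0.88 among 0 mM libraries. It was 0.87 to 0.90 among 100 mM libraries and 0.82 to 0.86 between both levels. Replicate 1 at 100 mM correlated at 0.87 and 0.88 with replicates 2 and 3 of its group. With the 0 mM libraries it correlated at 0.84 to 0.86. These pairs share libraries and clusters, and the correlations serve as a description.

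Named here are the 2 rises and 2 falls with the smallest p among clusters that have a deposited length and were called, that is, had an adjusted p under 0.05. Only clusters whose libraries did not overlap between the groups could be named, so their separation comes with the choice. The named clusters changed by 3.43-fold to 10.3-fold, with groups far apart beside the spread between replicates. Cluster-23439.55388, 4058 bases long, stood at 17.1, 17.9 and 23.8 FPKM (fragments per length of cluster and depth of library) in the 0 mM libraries 1 to 3. It stood at 163, 180 and 167 FPKM in the 100 mM libraries. The lowest 100 mM library was far above the highest 0 mM library. In counts it went from 68.3 CPM ± 14.6 to 704 CPM ± 67.9 (SD, n = 3 each), a log2 fold change of 3.37 with a standard error of 0.19 (adjusted p = 0.00538, edgeR's quasi-likelihood test).

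Cluster-23439.43102, of 1120 bases, had 23.0, 25.9 and 19.3 FPKM at 0 mM and 108, 119 and 121 FPKM at 100 mM. Its groups did not overlap, and the spread within either group was small beside the distance between them. The mean went from 18.2 CPM ± 2.51 to 110 CPM ± 13.1 (SD, n = 3 each). The log2 fold change was 2.60 with a standard error of 0.15 (edgeR adjusted p = 0.0128).

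Cluster-23439.47956 was an abundant cluster of 1025 bases that fell. Its level was 130, 171 and 148 FPKM at 0 mM and 44.1, 33.3 and 33.8 FPKM at 100 mM. Replicate 1 was the highest of the 100 mM libraries but still well under every 0 mM library. In counts it went from 107 CPM ± 16.6 to 31.1 CPM ± 3.15 (SD, n = 3 each), a log2 fold change of -1.78 with a standard error of 0.15 (edgeR adjusted p = 0.0355).

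Cluster-23439.49892, of 2643 bases, was scarcer, with 7.79, 7.36 and 6.22 FPKM at 0 mM. At 100 mM it had 1.48, 0.83 and 0.83 FPKM, again highest in replicate 1 and without overlap between the groups. The mean went from 15.6 CPM ± 1.39 to 2.68 CPM ± 0.78 (SD, n = 3 each), a log2 fold change of -2.53 with a standard error of 0.21 (edgeR adjusted p = 0.0379). On the log2(FPKM + 1) scale limma gave these 4 clusters, in the order described, log2 fold changes of 3.07, 2.31, -1.99 and -2.0, with adjusted p of 0.000292, 0.00357, 0.00811 and 0.00935. Both rises and both falls lost their call in edgeR without 0 mM replicate 1 or without 0 mM replicate 2, at adjusted p from 0.051 to 0.126, with the sign kept. Cluster-23439.43102 lost it further without 0 mM replicate 3 or 100 mM replicates 2 or 3, and both falls without any 0 mM or 100 mM library or without 400 mM replicate 2.

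**Figure D1:**
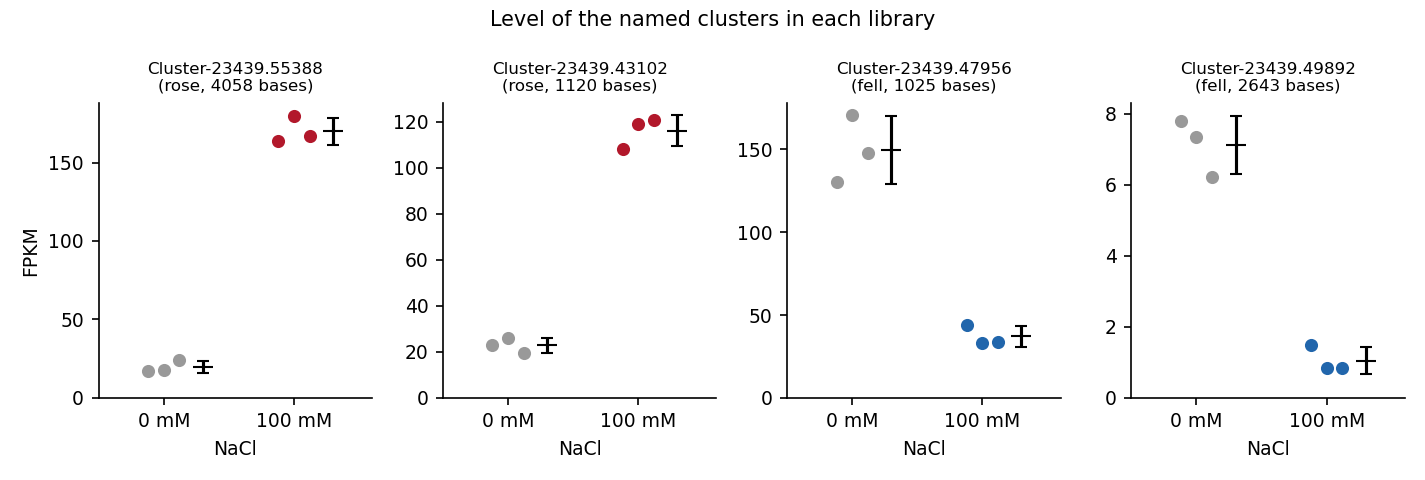
FPKM of the 4 named clusters in each library (points, replicates 1 to 3 from left to right) with the mean and SD of each group (bars beside the points, n = 3). In all 4 panels the 100 mM libraries do not overlap the 0 mM libraries, as the choice of clusters required. In both clusters that fell replicate 1 is the highest 100 mM library.

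Over the whole leaf transcriptome, 284 of 56832 clusters tested were called by edgeR's quasi-likelihood test at an adjusted p under 0.05, a share of 0.50%. Of these, 241 rose (0.424%) and 43 fell (0.0757%). Most calls lay close to the threshold, as 180 of the 241 rises and 30 of the 43 falls had an adjusted p over 0.04. A single rise, Cluster-23439.55388, had one under 0.01. Without 0 mM replicate 1, 2 or 3 the calls numbered 0, 0 and 1, and without 100 mM replicate 1, 2 or 3 they numbered 7, 2 and 1. The spread is shared with 400 mM, and without 400 mM replicate 1, 2 or 3 the calls numbered 649, 2 and 172. In each of these 9 fits all 284 clusters kept their direction and an unadjusted p under 0.05. The 284 were chosen by the same test on libraries that these fits share. All had groups without overlap, so this is no separate support for the calls. Leaving out a library also changed which clusters passed the filter, from 56832 to between 62300 and 64358.

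Direction was balanced among clusters whose groups separated, unlike among the calls. Such clusters were 14470 (25.5%). If the 6 libraries differed only by noise, 3 against 3 would separate in a share of up to 0.1, counting both directions. The shares without overlap given here and below are to be read beside it. In 7008 clusters (12.3%) every 100 mM library lay above every 0 mM library in CPM, and in 7462 (13.1%) every one lay below. The called share of these was 3.44% for the higher and 0.576% for the lower. They differed in level, with a median of 12.3 CPM at 100 mM for the higher clusters and 2.76 CPM at 0 mM for the lower. These counts depend on the scaling. TMM, the scaling of edgeR used here, rescales libraries to the bulk of clusters. When libraries were scaled by their size alone, the median log2 fold change over the tested clusters went from -0.06 to -0.31. The clusters without overlap then numbered 4495 higher and 11455 lower, and the calls 105 higher and 33 lower.

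The size of the called changes was mostly several-fold. The median rise was 5.57-fold, with the middle of the rises running from 3.38-fold to 12.1-fold (quartiles), and the smallest called rise was 1.71-fold. Between 2-fold and 4-fold there were 84 rises and 7 falls, between 4-fold and 8-fold 64 and 12, and between 8-fold and 16-fold 39 and 3. At 16-fold or more there were 47 rises and 20 falls, and under 2-fold 7 rises and 1 fall. The largest changes often came with no count in a group. Of the 241 rises, 20 were without a count in the 3 libraries at 0 mM, and of the 43 falls, 17 were without one at 100 mM. Taking 3 counts in the whole group as the limit a count of 0 allows, which covers counting error only, these rises were at least 14.6-fold to at least 620.5-fold, and these falls at least 21.5-fold to at least 578-fold. Among calls with counts in both groups, the largest fitted log2 fold change was 10.74 for a rise and the largest fall 5.01 in size.

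**Figure D2:**
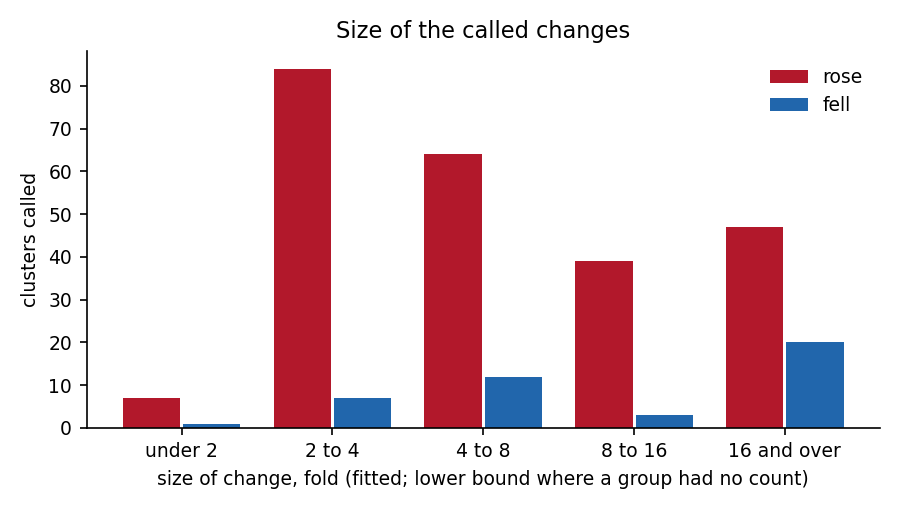
Number of called clusters (vertical axis) by size of change in fold (horizontal axis), for rises and falls; clusters with no count in a group stand at their lower bound against 3 counts over the group. Rises are most frequent between 2-fold and 4-fold (84 of 241), falls at 16-fold and over (20 of 43).

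Most called clusters had a wide gap between their groups. The lowest 100 mM library was at least 2-fold above the highest 0 mM library, on the CPM + 0.5 scale, in 214 of the 241 rises. The same gap the other way stood in 39 of the 43 falls. Such gaps were found in 1196 clusters higher and 568 lower over all tested, so most clusters with a gap of this size were not called. The fitted change needed for a call grew as clusters became scarcer. By class of abundance at 400 mM, the smallest log2 rise called was 0.77 over 100 CPM, 0.80 between 10 and 100 CPM, 1.63 between 1 and 10 CPM and 6.90 under 1 CPM. The median standard error of the log2 difference was 0.22 over 100 CPM, 0.24 between 10 and 100 CPM, and 0.45 in each of the lower classes.

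Among clusters whose groups did not overlap, those over 10 CPM were mostly higher at 100 mM and those under 10 CPM mostly lower, while with library size as scaling only those over 100 CPM were mostly higher. To keep a cluster's own change between the groups compared from placing it, classes were set by the mean CPM of the 400 mM libraries. A response shared by both salt levels can still move a cluster between classes. The filter on low counts used all 9 libraries. A cluster under 1 CPM at 400 mM could thus pass it through its level at 0 mM or 100 mM. How far this shaped the shares and medians of that class was not tested. Over 100 CPM, 700 of 1826 clusters had all 100 mM libraries above all 0 mM libraries (38.3%) and 121 had them below (6.63%). Between 10 and 100 CPM the shares were 22.2% and 9.70% of 12303 clusters. Between 1 and 10 CPM they were 10.3% and 12.9% of 24885. Under 1 CPM they were 5.66% and 16.5% of 17818.

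The share called was also highest in the most abundant class. Over 100 CPM 77 clusters rose and 1 fell, which is 4.27% of the class called against 0.50% of all clusters. The class of 10 to 100 CPM held 123 rises and 15 falls (1.12% called), the class of 1 to 10 CPM 38 rises and 19 falls (0.229%), and the scarcest 3 rises and 8 falls (0.0617%). DESeq2 called 6178 clusters in all, some of them outside those tested by edgeR. Among the clusters tested by edgeR it gave 502 rises and 44 falls over 100 CPM and 1647 and 463 between 10 and 100 CPM. Between 1 and 10 CPM it gave 1155 and 969, and under 1 CPM 315 and 721. Over the clusters of a class, called or not, the median log2 fold change was 0.28, 0.14, -0.09 and -0.43 from the most to the least abundant class. When scaled by library size alone, these medians were 0.01, -0.12, -0.34 and -0.67, so that the sign between 10 and 100 CPM turned, while the order of the classes stayed. The shares without overlap then read 24.5% higher and 17.1% lower over 100 CPM, 12.6% and 21.4% between 10 and 100 CPM, and 4.20% and 20.7% under 1 CPM. In bulk RNA, fewer cells of a type and less RNA per cell cannot be told apart.

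**Figure D3:**
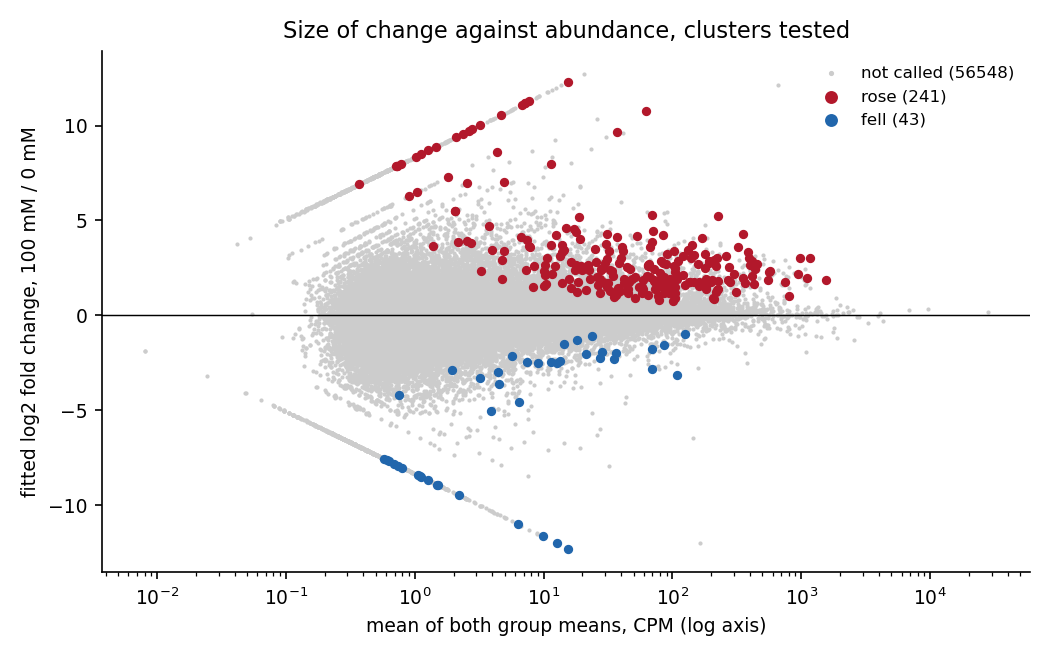
Fitted log2 fold change of 100 mM over 0 mM (vertical axis) against the mean of both group means in CPM (horizontal log axis) for the 56832 clusters tested; the outer diagonal lines are clusters with no count in a group, whose fitted values depend on the fit. The 241 rises lie mostly at high abundance, while the 43 falls lie lower. Both reach the outer diagonals, with 20 rises and 17 falls without a count in a group.

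**Figure D4:**
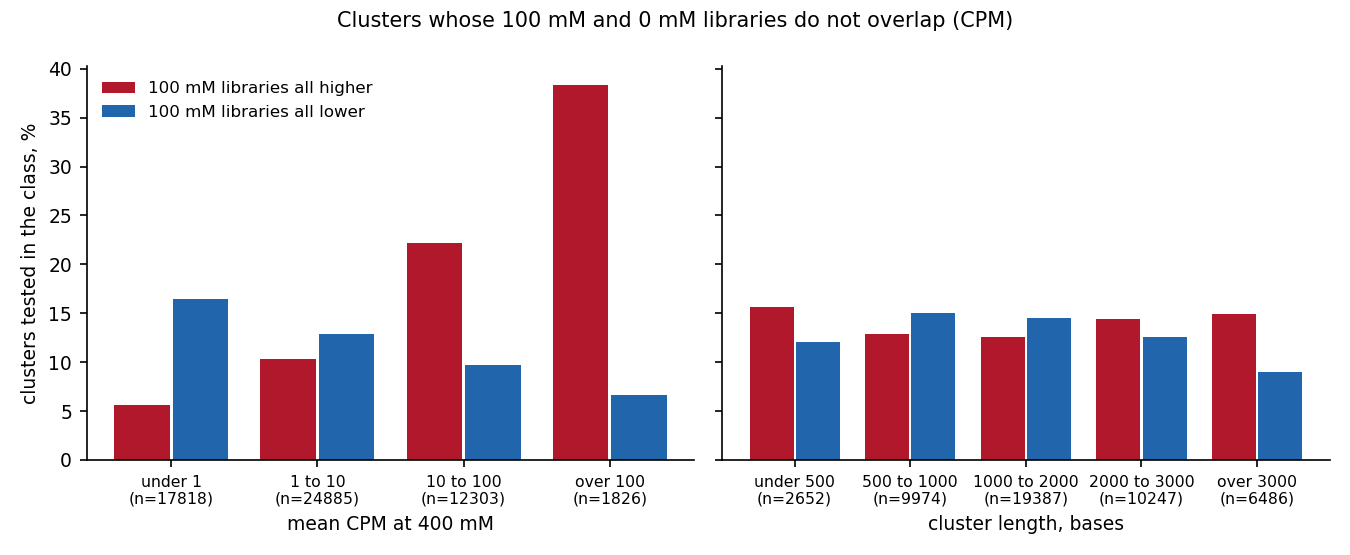
Share of tested clusters (vertical axis, percent) whose 100 mM libraries all lie above (red) or all below (blue) the 0 mM libraries in CPM, by abundance at 400 mM (left) and by cluster length (right), with the number of clusters under each class. From under 1 CPM to over 100 CPM the higher share goes from 5.66% to 38.3% and the lower share from 16.5% to 6.63%, while shares across length classes stay between 8.99% and 15.6%; with library size as scaling, the lower share exceeds the higher in every class but over 100 CPM.

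The difference between classes was also taken in each library, where a library's scaling factor cancels apart from the pseudocount. Counts were thinned to 16502576 per library, and each cluster's log2(CPM + 0.5) was set against its mean over the 6 libraries. The mean deviation in the class over 100 CPM, less the mean deviation in the class under 1 CPM, was -0.49, -0.14 and -0.28 in the 0 mM libraries 1 to 3. It was 0.11, 0.36 and 0.44 in the 100 mM libraries. All 100 mM libraries lay above all 0 mM libraries, with replicate 1 nearest to 0 mM. The difference was 0.61 on the log2 scale (-0.30 ± 0.18 against 0.30 ± 0.18, SD, n = 3 each; exact two-sided permutation p = 0.1, the smallest that 3 against 3 allows). Without 100 mM replicate 1 the difference was 0.71. With clusters of 1 to 10 CPM in place of those under 1 CPM it was 0.48. The filter on low counts acts on the class under 1 CPM as described above. How far it shaped the difference was not tested. Clusters over 100 CPM took 48.8%, 50.1% and 50.3% of tested counts at 0 mM, and 51.2%, 53.1% and 55.1% at 100 mM. Clusters under 1 CPM took 2.06%, 1.67% and 2.00% at 0 mM, and 1.79%, 1.26% and 1.03% at 100 mM, where replicate 1 overlapped the 0 mM range.

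Called shares varied less across classes of length than across classes of abundance. A length was deposited for 30560 of the clusters tested, and a further set had one implied by its counts and FPKM, which gave 48746 clusters (85.8%) a length. Their median was 1560 bases. The 239 rises with a length had a median of 1719 bases, from 287 to 8324 bases, and the 38 falls a median of 1774 bases, from 471 to 5097 bases. Called shares were 0.603% under 500 bases, 0.381% from 500 to 1000, 0.578% from 1000 to 2000, 0.654% from 2000 to 3000 and 0.678% over 3000, beside 0.50% over all clusters. Clusters without a length, which are too scarce to imply one, were called in 0.0866%.

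Within 3 of the 4 classes of abundance, the highest called share stood in clusters under 500 bases. Between 10 and 100 CPM, 7 of 226 such clusters rose (3.10% called), while 0.870% to 1.28% were called in the other length classes. Between 1 and 10 CPM 7 of 1156 were called (0.606%), beside 0.178% to 0.249% elsewhere. Over 100 CPM 2 of 30 rose (6.67%), beside 3.06% to 5.99% elsewhere. Under 1 CPM 0 of 1240 short clusters were called by edgeR, with 122 at an unadjusted p under 0.05 and 70 called by DESeq2. DESeq2 likewise called the highest share in clusters under 500 bases between 10 and 100 CPM (23.9%) and between 1 and 10 CPM (12.1%), but the lowest share over 100 CPM (16.7%). The edgeR counts are small, and the short clusters were singled out after their values were seen.

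Direction varied by a few percentage points between classes of length. From 500 bases up, the share with all 100 mM libraries below read 15.0%, 14.5%, 12.6% and 8.99% from short to long. The share above read 12.8%, 12.6%, 14.4% and 14.9%. The median log2 fold change read -0.09, -0.08, -0.01 and 0.11. Clusters under 500 bases did not follow this order. In the 6486 clusters over 3000 bases 14.9% had all 100 mM libraries above and 8.99% below the 0 mM libraries, with a median log2 fold change of 0.11. From 500 to 1000 bases 12.8% lay above and 15.0% below, with a median of -0.09. Under 500 bases 15.6% lay above and 12.1% below. When scaled by library size alone, the medians were -0.14 over 3000 bases and -0.34 from 500 to 1000 bases. The longest clusters then turned to 9.40% above and 15.4% below, and those under 500 bases to 11.8% and 18.5%. Per library, the mean deviation of log2(FPKM + 1) in 10019 clusters of at least 2000 bases minus that in 9592 clusters under 1000 bases was -0.05, 0.00 and -0.06 at 0 mM. It was -0.05, 0.07 and 0.09 at 100 mM. The groups overlapped, since replicate 1 at 100 mM lay among the 0 mM libraries. The difference of 0.08 was not beyond the spread between libraries (-0.04 ± 0.04 against 0.04 ± 0.07, SD, n = 3 each; exact two-sided permutation p = 0.2). Among clusters between 10 and 100 CPM it was -0.02 (exact two-sided permutation p = 0.6).

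**Figure D5:**
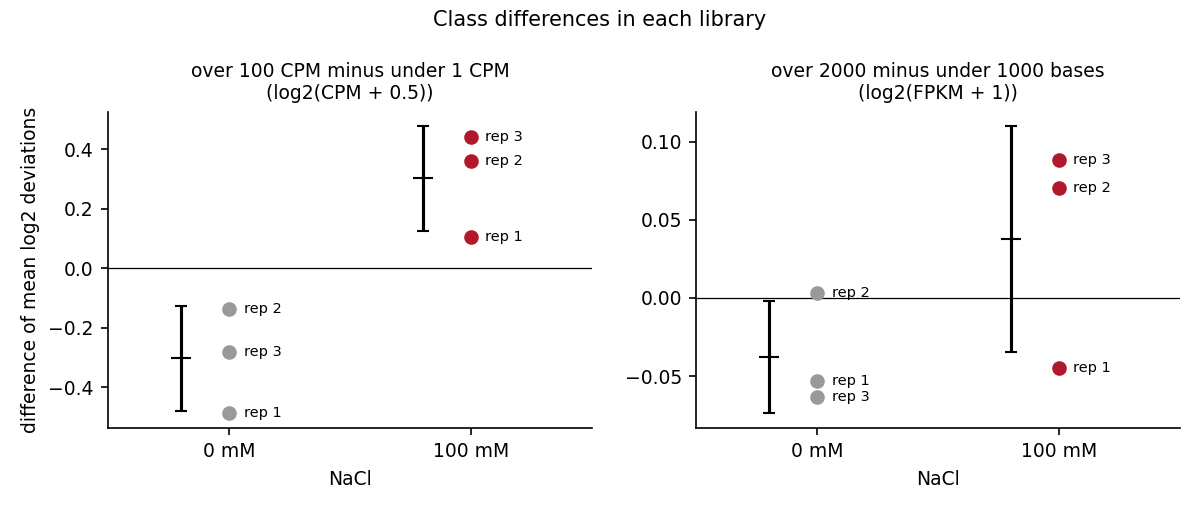
Difference between classes in mean log2 deviation (vertical axis) in each library, for clusters over 100 CPM minus under 1 CPM (left, log2(CPM + 0.5)) and for clusters of at least 2000 bases minus under 1000 bases (right, log2(FPKM + 1)); bars give the mean and SD of each group (n = 3). On the left the 100 mM libraries lie between 0.11 and 0.44 and the 0 mM libraries between -0.49 and -0.14; on the right both groups overlap, on a far narrower axis.

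On the FPKM scale more clusters were called, out of a smaller set tested, and nearly as many fell as rose. The deposited FPKM table holds 31628 clusters, those above an FPKM of 0.3 in each of the 9 libraries, so that clusters absent at a salt level are not in it. Fitted in counts to only these clusters, edgeR tested 30576 and called 1490, 1068 higher and 422 lower. Limma on log2(FPKM + 1) called 1858 of the 31628 (5.87%), 932 higher (2.95%) and 926 lower (2.93%). With each library centred on its median, 1135 were called higher and 472 lower. The rises went from a median of 10.5 FPKM at 0 mM to 42.9 FPKM at 100 mM, with a median ratio of 3.89. The falls went from 11.1 to 3.17 FPKM, with a median ratio of 3.05. At least a 2-fold ratio of mean FPKM was reached by 868 rises and 834 falls, and at least 4-fold by 446 and 232. With no filter on low FPKM limma called 513 of 121545 clusters, 296 higher and 217 lower. Over the clusters of the FPKM table, the count and the balance moved with single libraries. Without 100 mM replicate 1 limma called 879 higher and 1141 lower, without replicate 2 only 28 and 7, and without replicate 3 only 69 and 24. Without 0 mM replicate 1 it called 290 and 115, without replicate 2 594 and 375, and without replicate 3 404 and 178.

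Rises and falls called in counts were called on the FPKM scale too wherever the FPKM table held them, apart from 3 rises. Of the 241 rises called in counts, 204 were in the FPKM table and 201 of these were also called there. They are 83.4% of the count-based rises and 21.6% of the FPKM-based ones. Of the 43 falls, 21 were in the table and all 21 were called there, which is 48.8% of the count-based falls and 2.27% of the FPKM-based ones. No cluster was called in opposite directions. Both tests read the same libraries, so the overlap is no independent evidence. Of the 930 FPKM-based rises tested in counts, all 930 had an unadjusted edgeR p under 0.05 in the same direction, as had 878 of the 906 falls tested.

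On the FPKM scale the share that rose was larger, and the share that fell smaller, in more abundant classes. Over 100 FPKM at 400 mM, 184 of 1500 clusters rose (12.3%) and 31 fell (2.07%). Between 10 and 100 FPKM 5.18% rose and 2.87% fell, between 1 and 10 FPKM 1.19% and 2.91%, and under 1 FPKM 0.255% and 3.87%. The share that fell varied less between these classes than the share that rose. Over 100 FPKM, the share that rose was 7.91% under 500 bases, 10.8% from 500 to 1000, 12.4% from 1000 to 2000, 23.4% from 2000 to 3000 (29 of 124 clusters) and 19.4% over 3000 (7 of 36). This class of abundance was picked after its values were seen. By length alone, the share called was 5.95% under 500 bases, 7.11% from 500 to 1000, 5.96% from 1000 to 2000, 5.42% from 2000 to 3000 and 4.11% over 3000. Over 3000 bases 2.45% rose and 1.66% fell, while from 500 to 1000 bases 3.44% rose and 3.67% fell.

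The called clusters made up a small part of the leaf RNA at either salt level. The 241 rises together held 0.955%, 1.25% and 1.20% of all counts in the 0 mM libraries, and 3.80%, 4.53% and 4.38% in the 100 mM libraries. On the FPKM scale they held 0.743% to 1.02% at 0 mM and 2.94% to 3.55% at 100 mM. The 43 falls held 0.155%, 0.138% and 0.136% of counts at 0 mM, and 0.0327%, 0.0252% and 0.0277% at 100 mM. These sums were chosen by the test and describe its calls. The most abundant rise reached a mean of 2441 CPM at 100 mM, and the most abundant fall started from 194 CPM at 0 mM.

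Replicate 1 at 100 mM was nearest to the 0 mM libraries in most called clusters. It was the lowest of the 100 mM libraries in 163 of the 241 rises, against 37 and 41 for replicates 2 and 3. It was the highest in 33 of the 43 falls, against 4 and 6. Over all clusters without overlap it was nearest in 53.8% of the 7008 higher and in 51.3% of the 7462 lower clusters. Among the 241 called rises its median log2 difference from the 0 mM mean was 2.14, near the 2.35 and 2.40 of the others. Each of these rises had every 100 mM library above every 0 mM library, so this nearness comes partly with the choice. The part of replicate 1 in these results was not tested beyond the fits without it.

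Spread within groups was slightly larger at 100 mM. The median SD of log2(CPM + 0.5) over tested clusters was 0.41 at 0 mM and 0.44 at 100 mM, and 53.0% of clusters had the larger SD at 100 mM. Over 100 CPM the medians were 0.21 and 0.25, with the larger SD at 100 mM in 57.3% of clusters.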

How the data were processed

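Leaf RNA of 9 libraries was sequenced, and the labelled salt levels gave 3 groups of 3. The authors deposited estimated counts of reads, not normalized, and FPKM per cluster for each library, and a table of the series held FPKM and cluster length. The FPKM values were scaled to length and library size by the authors, per the file headers. Per the submitters' processing notes, Bowtie2 2.0.6 and TopHat2 2.0.9 were used, for steps that are not named. Assembler, counting tool and strand setting: not given in the sources used here.

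Counts were rounded to whole numbers. edgeR 4.0.16 (R 4.3.3; quasi-likelihood test, TMM, default filterByExpr) was fitted to all 9 libraries with salt level as group and 6 residual degrees of freedom, and p-values were adjusted by Benjamini-Hochberg over the 56832 clusters tested. Limma 3.58.1 with a mean trend was fitted to log2(FPKM + 1). The pseudocount makes the fold changes of low clusters smaller than they are. DESeq2 1.42.0 served as an alternative. Lengths beyond the deposited ones came from the ratio of count to FPKM, where a library had at least 10 counts and 1 FPKM; over 31079 clusters with both, the ratio of implied to deposited length ran from 0.998 to 1.002 between its 5th and 95th percentiles. Standard errors are those of the difference of mean log2(CPM + 0.5). Of the clusters tested, 97.9% carry the same leading number, 23439, so alleles, family members and fragments of 1 gene may be split or share reads, and single clusters are uncertain as genes.

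On simulated data for this comparison (52898 clusters tested), edgeR recovered 29.0% of 4-fold and 88.0% of 16-fold changes. The changes were set only in clusters above a minimum mean CPM, so these rates do not cover scarce clusters. At most 2 clusters a direction were named, since no names are paired: those with the smallest edgeR p among called clusters with a deposited length and FPKM groups without overlap. The comparison, classes and rules were chosen with earlier results of these data known.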

Additional observations from a re-analysis of the deposited data

How the results depend on the processing

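The calls of 100 mM against 0 mM were 284 in edgeR. They were 138 with library size as the only scaling (105 higher, 33 lower), 487 with at least 1 CPM in 3 libraries, 6178 with DESeq2 (3765 higher, 2413 lower), 188 with limma-voom and 1103 with the newer adjusted deviances. They were 5 with glmTreat against a fold of 1.5 and 1490 with only the clusters of the series table, where fewer clusters were tested. DESeq2 size factors (305), upper quartile scaling (193), no filter (251) and only the 6 libraries compared (378) stayed within 1.5 times in number. The clusters called changed more. Of the 284, these settings called 284, 193, 229 and 184 again, in this order, and limma-voom 159. With the replicate number as a block (replicate block) the calls in counts were 601, 549 higher and 52 lower, with 213 of the 284 among them. The FPKM calls were then 2415. No pairing by number was seen, as same-numbered libraries correlated in their deviations at 0.03, 0.06 and -0.01. Libraries of unlike number correlated at -0.10 to 0.07. With 3 libraries a group these values cannot settle whether the samples were paired. Leaving out each library in turn gave 0 to 649 calls in counts. The 0 came from edgeR's quasi-likelihood test without 0 mM replicate 1 (7337 clusters at an unadjusted p under 0.05) or replicate 2 (8171). On the FPKM scale leaving out each library gave 35 to 2253 calls and no filter on low FPKM 513. In every setting of either scale a cluster of the 284 or the 1858 that was tested kept its direction. They were chosen on the same libraries, so a kept direction is no separate support. Apart from the scalings and tests named, the cause of the moves in the number of calls was not tested. The abundance difference of 0.61 kept its sign in all alternatives, between 0.33 and 0.84. The length difference of 0.08 was -0.0247 with only clusters of 10 to 100 CPM and positive in the other alternatives; the cause was not tested. The 4 named clusters kept their sign in 14 alternatives each, and 12, 9, 7 and 7 of these kept the call. Only 3 libraries a group limit all tests, and scarce clusters could be called only for large changes.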
